A study of Mus musculus and Ictidomys tridecemlineatus with 36 samples.

Results

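The Notch pathway genes examined here were 10 mouse genes taken by name: the receptors *Notch1*, *Notch2* and *Notch3*, the ligands *Dll1*, *Dll3*, *Dll4* and *Jag1*, the target repressors *Hes1* and *Hes5*, and the related gene *Hes6*. They are 10 of the 21951 protein-coding genes of the GENCODE M21 annotation of GRCm38. Their peaks were those within 1 kb of any annotated transcription start site (TSS) or in the gene body extended by 20 kb on each side. This gave 262 of the 246656 peaks in the 5 mouse lists: 28 for H3K4me3, 59 for H3K27ac, 115 for H3K4me1, 45 for Otx2 and 15 for Neurod1.

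Notch signalling passes between touching cells. A Delta or Jagged ligand on one cell leads to cleavage of a Notch receptor on its neighbour, and the freed intracellular part enters the nucleus, where it joins the DNA-binding protein RBPJ and switches on the Hes repressors. In the developing retina Hes1 and Hes5 hold cells as progenitors, the Delta ligands are made by cells that begin to differentiate, and Neurod1 (a basic helix-loop-helix activator) and Otx2 (a homeodomain factor) act in photoreceptor precursors.

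CUT&RUN, which releases and sequences the DNA under an antibody in intact nuclei, was run on retinas of mice at postnatal day 2, and each of the 2 biological replicates pooled 3 animals. The H3K4me3, H3K27ac and H3K4me1 lists each rested on 2 libraries, the Neurod1 list on 4, and the Otx2 list on 8, made with a pair of antibodies (4 libraries each). Each list had been called jointly on all libraries of its target against the 2 IgG libraries, so every peak has 1 value, with no replicate error, and the depth behind it is unknown. Of the 36 libraries in the series, 20 were from mouse, and the 16 from the 13-lined ground squirrel were not used here. No treatment or genetic change is given for the mice, and strain and sex are not given in the sources used here. The retina is a mixture, so a mark in fewer cells and a weaker mark in each cell cannot be told apart.

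H3K4me3 marks promoters, H3K4me1 marks enhancers and promoter flanks, and H3K27ac marks active elements of both kinds. All values below are the fold enrichment of the signal at a peak's summit over IgG. The list medians were 13.5-fold for H3K4me3, 3.36-fold for H3K27ac, 4.25-fold for H3K4me1, 3.54-fold for Otx2 and 3.78-fold for Neurod1. As a check of the tissue, H3K4me3 lay at the TSS of 6 of 6 retinal progenitor genes and 5 of 5 photoreceptor precursor genes. It lay at 1 of 6 endothelial genes and at none of 4 genes each of pericytes, microglia, pigment epithelium and astrocytes. H3K4me1 separated the lists less, lying at the TSS of 13 of these 22 genes, among them 4 of 6 endothelial, 3 of 4 pericyte and 4 of 4 astrocyte genes. H3K27ac lay at 3 of the 22.

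The stretches below are the places where the members' Neurod1 or Otx2 signal peaked, printed because they carry the factor results that follow. For each of 7 members the highest Neurod1 peak is shown, or the highest Otx2 peak where no Neurod1 peak was called, in both cases among windows that touch no UTR. No stretch is printed for *Dll1*, *Dll3* or *Hes1*, although these genes also had factor windows that touch no UTR. Each printed stretch is 300 bases of the plus strand of GRCm38 centred on a summit. Capitals mark the E-boxes CAGATG and CAGCTG (the kind of site basic helix-loop-helix factors bind) and TAATCC (the core bound by Otx2), on either strand. The order is a *Notch1* intron at chr2:26502170-26502469, a *Notch2* intron at chr3:98045743-98046042, a *Notch3* intron at chr17:32143046-32143345, the *Dll4* upstream region at chr2:119324128-119324427, a *Jag1* intron at chr2:137114313-137114612, the *Hes5* upstream region at chr4:154952911-154953210 and the *Hes6* start region at chr1:91413356-91413655. The *Notch2* and *Jag1* stretches are centred on Otx2 summits and the other 5 on Neurod1 summits.
Notch1: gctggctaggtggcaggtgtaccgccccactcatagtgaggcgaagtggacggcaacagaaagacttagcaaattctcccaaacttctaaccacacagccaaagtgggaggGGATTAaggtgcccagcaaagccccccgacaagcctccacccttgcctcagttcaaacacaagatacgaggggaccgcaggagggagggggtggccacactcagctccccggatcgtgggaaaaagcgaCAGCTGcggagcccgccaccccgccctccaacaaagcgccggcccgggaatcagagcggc
Notch2: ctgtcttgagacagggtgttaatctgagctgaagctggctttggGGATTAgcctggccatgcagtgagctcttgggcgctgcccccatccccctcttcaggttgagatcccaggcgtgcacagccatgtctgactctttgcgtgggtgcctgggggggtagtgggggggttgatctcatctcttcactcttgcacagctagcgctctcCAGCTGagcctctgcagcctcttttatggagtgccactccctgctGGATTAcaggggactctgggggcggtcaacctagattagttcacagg
Notch3: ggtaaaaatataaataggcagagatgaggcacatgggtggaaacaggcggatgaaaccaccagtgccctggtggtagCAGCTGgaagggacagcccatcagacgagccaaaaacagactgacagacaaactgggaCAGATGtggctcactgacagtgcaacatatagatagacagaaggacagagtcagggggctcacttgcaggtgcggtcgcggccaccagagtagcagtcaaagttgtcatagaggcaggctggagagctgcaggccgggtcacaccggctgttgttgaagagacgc
Dll4: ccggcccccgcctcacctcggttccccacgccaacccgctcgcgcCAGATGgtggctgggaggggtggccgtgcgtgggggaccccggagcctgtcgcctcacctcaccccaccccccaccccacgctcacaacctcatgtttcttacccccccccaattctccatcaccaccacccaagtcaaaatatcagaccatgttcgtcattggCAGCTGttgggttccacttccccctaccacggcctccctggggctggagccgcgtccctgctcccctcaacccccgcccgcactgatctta
Jag1: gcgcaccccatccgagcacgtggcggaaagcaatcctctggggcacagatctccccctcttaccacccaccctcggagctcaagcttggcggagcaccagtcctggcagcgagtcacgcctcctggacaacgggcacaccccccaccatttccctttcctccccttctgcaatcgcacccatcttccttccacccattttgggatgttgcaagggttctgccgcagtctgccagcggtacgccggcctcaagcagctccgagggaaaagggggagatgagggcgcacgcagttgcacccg
Hes5: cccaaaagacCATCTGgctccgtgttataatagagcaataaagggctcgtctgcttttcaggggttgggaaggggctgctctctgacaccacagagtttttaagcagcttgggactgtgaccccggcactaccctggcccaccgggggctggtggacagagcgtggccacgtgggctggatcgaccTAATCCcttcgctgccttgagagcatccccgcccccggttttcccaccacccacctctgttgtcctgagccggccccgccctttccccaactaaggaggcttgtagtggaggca
Hes6: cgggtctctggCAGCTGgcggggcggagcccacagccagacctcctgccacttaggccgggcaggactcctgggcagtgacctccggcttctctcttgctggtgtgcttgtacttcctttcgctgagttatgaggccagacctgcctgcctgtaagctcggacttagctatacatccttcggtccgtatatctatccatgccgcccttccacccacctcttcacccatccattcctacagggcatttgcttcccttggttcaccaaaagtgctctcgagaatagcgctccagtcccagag

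The *Notch1* stretch holds 1 CAGCTG, 93 bp after the summit, and 1 TAATCC on the minus strand, printed as GGATTA, 36 bp before it, counted along the plus strand. The *Jag1* stretch holds none of the 3 motifs. Of the 15 Neurod1 windows of the members, 8 (53.3%) held CAGCTG and 6 (40.0%) held CAGATG. Over all 4744 Neurod1 peaks the shares were 39.8% and 52.1%. TAATCC was in 6 of the 45 Otx2 windows of the members (13.3%) and in 18.2% of all 29115. The RBPJ core TGGGAA was in 7 of the 15 Neurod1 windows (46.7%, against 27.2% of all) and in 14 of the 45 Otx2 windows (31.1%, against 25.4%). CACNAG, the N-box that Hes proteins bind, was in 9 of 15 (60.0%, against 48.1%) and in 27 of 45 (60.0%, against 45.8%). Windows of 1 gene can share sequence, and these counts describe letters only.

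Every member carried H3K4me3 within 1 kb of a TSS, 10 of 10, where 56.0% of all protein-coding genes did. H3K4me1 was also at 10 of 10, against 63.6% of all genes, and Otx2 at 10 of 10, against 51.0%. H3K27ac was at 6 of 10, against 22.5%, and Neurod1 at 5 of 10, against 5.75%. Among the 12289 genes that carried H3K4me3 at a TSS, 91.9% had H3K4me1 there, 86.4% Otx2, 37.1% H3K27ac and 9.46% Neurod1. The counts of H3K4me1 and Otx2 were thus near those of any marked promoter, while the Neurod1 count was further from it. No test was made, since the members were chosen with earlier results known and each target has 1 list.

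**Figure D1:**
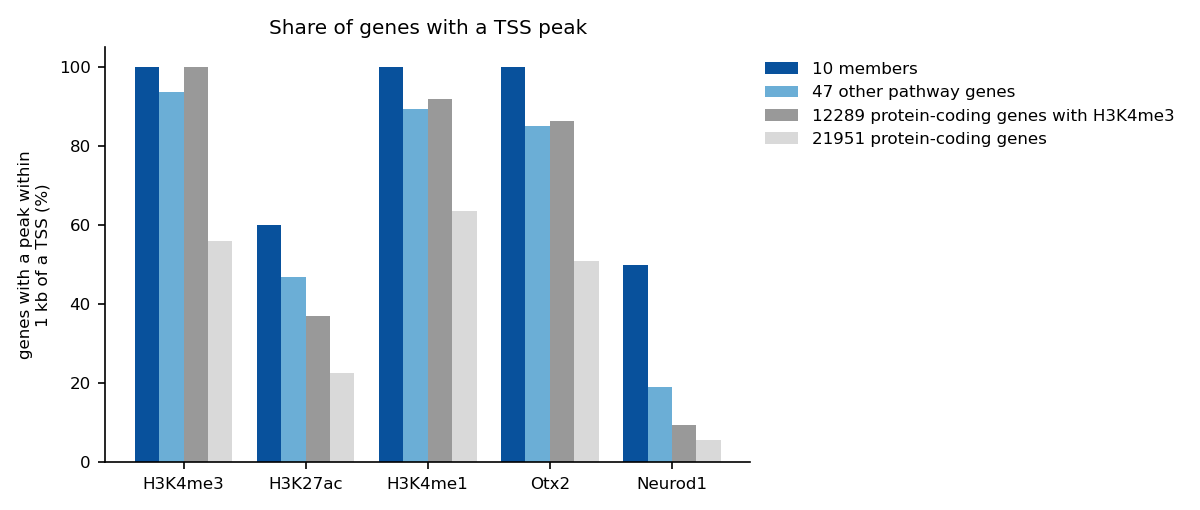
Share of genes with a peak within 1 kb of a TSS (vertical axis, percent) for each of the 5 targets, for the 10 members, 47 other pathway genes, 12289 protein-coding genes with H3K4me3 at a TSS and all 21951 protein-coding genes. The Neurod1 bar stands at 5 of 10 in the members, and at 19.1%, 9.46% and 5.75% in the other sets.

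The 6 members with H3K27ac near a TSS were *Notch1*, *Notch3*, *Dll1*, *Dll3*, *Hes5* and *Hes6*, and the 4 without were *Notch2*, *Dll4*, *Jag1* and *Hes1*. At *Notch3* the acetylated peaks lay at internal start sites and not at its H3K4me3 promoter. An H3K27ac peak lay on the H3K4me3 peak itself at 5 of 10 members, against 30.1% of the genes with H3K4me3. The 5 members with Neurod1 near a TSS were *Notch1*, *Dll1*, *Dll3*, *Dll4* and *Hes6*. In all 5 the Neurod1 peak lay on the H3K4me3 peak, so 5 of 10 members had it there, against 8.73% of the genes with H3K4me3. Of those genes, 1162 had Neurod1 near a TSS and 1073 had it on the H3K4me3 peak, so this position is the usual one. Several of the members' peaks were weak. With a −log10 q of at least 5, H3K27ac remained at *Dll3* and *Hes6* only and Neurod1 at *Dll1*, *Dll3* and *Hes6* only. No share of all genes at that threshold is given here, so these calls cannot be set against the shares above.

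**Figure D2:**
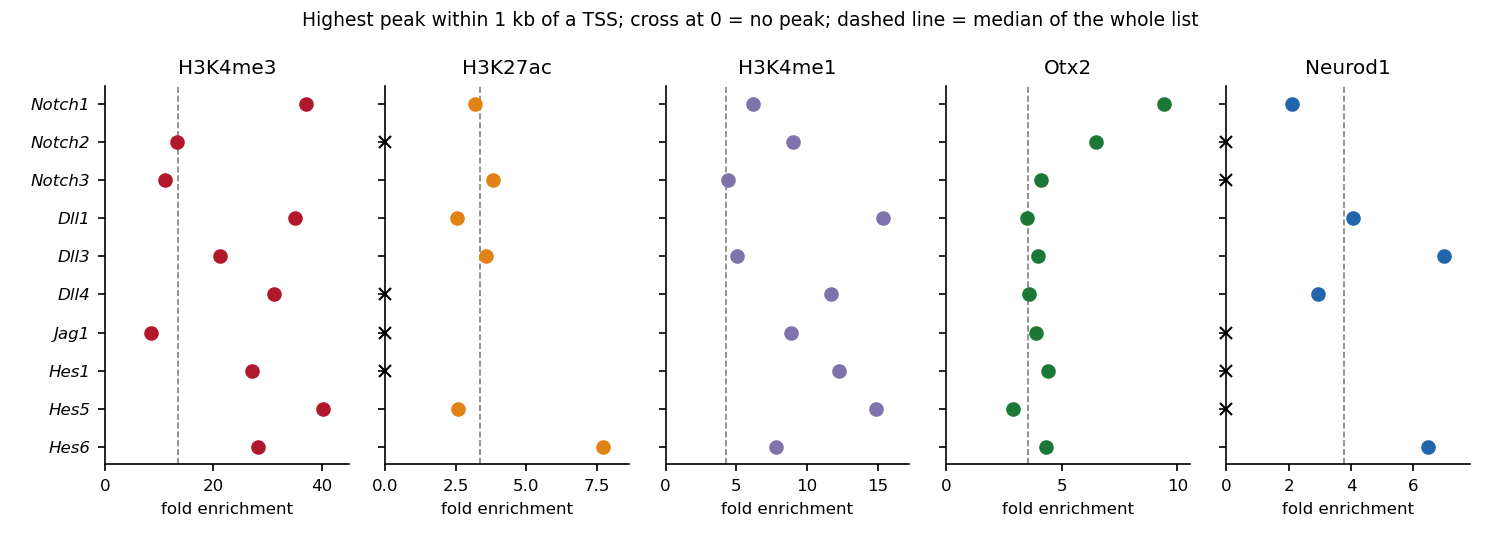
Highest fold enrichment over IgG of a peak within 1 kb of a TSS (horizontal axes) for each member (rows) and each target (panels), with a cross at 0 where there was no peak and a dashed line at the median of the whole list. H3K4me3 runs from 8.44-fold at Jag1 to 40.2-fold at Hes5, and Neurod1 has 5 crosses.

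The H3K4me3 peaks differed widely among the members. At 7 of them the highest TSS peak was above the list median of 13.5-fold, and at 3, *Notch2* (13.3-fold), *Notch3* (11.1-fold) and *Jag1* (8.44-fold), it was below. The median over members was 27.7-fold, against 17.5-fold over all genes with such a peak. *Hes5* had the highest, 40.2-fold over 5625 bp, followed by *Notch1* at 37.2-fold over 3518 bp and *Dll1* at 35.2-fold over 5137 bp. Width set *Hes1* apart from its rank by fold: its 27.1-fold peak was 5719 bp wide, a width reached by 0.597% of the list. In all, 6 of the 10 peaks were wider than 2641 bp, the 90th percentile of the list. The list also holds peaks away from any TSS, and no width over TSS peaks alone is given. The *Hes5* peak also came within 1 kb of a TSS of the neighbouring gene *Pank4*, so part of its width lies by another promoter.

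**Figure D3:**
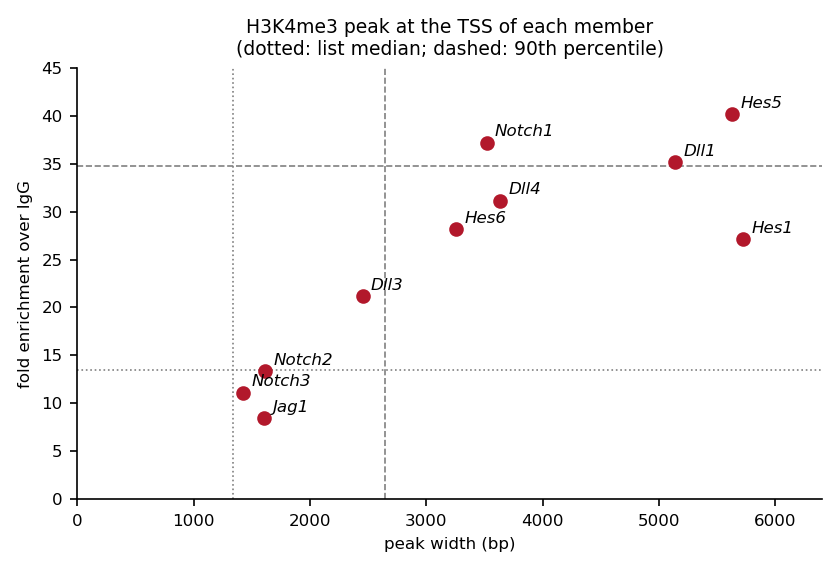
Width in bp (horizontal axis) and fold enrichment over IgG (vertical axis) of the highest H3K4me3 peak within 1 kb of a TSS of each member, with the list median dotted and its 90th percentile dashed. Notch2, Notch3 and Jag1 lie together at the lower left, between 1424 and 1617 bp, and Dll1, Hes5 and Hes1 reach 5137, 5625 and 5719 bp.

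Among the receptors, *Notch1* (chr2:26457903-26516663, minus strand), the main receptor of retinal progenitors, held more H3K27ac peaks than any other member. It had 19, a number reached by 2.71% of protein-coding genes. Ranks of peak counts here and below are not scaled by window length. The *Notch1* window spans 98761 bp, against a median of 57403 bp over protein-coding genes. The *Notch1* H3K4me3 peak of 37.2-fold (chr2:26501007-26504524) lay at the coding TSS at 26503822. The coding TSS furthest upstream, at 26516663, had no H3K4me3 and an H3K4me1 peak of 6.12-fold, near the 6.20-fold beside the inner one. H3K4me3 thus lay at the inner of the 2 coding start sites. The H3K27ac peak on that promoter was only 2.20-fold, with a −log10 q of 1.82, and the other 3 H3K27ac peaks within 1 kb of a TSS (2.84, 2.84 and 3.19-fold) lay at internal start sites of non-coding transcripts in the 3′ part of the gene.

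Inside the gene, *Notch1* carried a wide domain of H3K4me1 and H3K27ac. Its promoter-side end also held an H3K4me3 peak of 2.97-fold (chr2:26500229-26500520). An H3K4me1 peak of 12.95-fold ran over 18765 bp of introns and exons (chr2:26481970-26500734), a width reached by 0.039% of the list. Within it, H3K27ac formed a peak of 8.56-fold over 7539 bp (chr2:26493128-26500666), a fold reached by 1.23% of the list and a width reached by 0.108%. A second H3K27ac peak there was 5.97-fold over 6434 bp (chr2:26485051-26491484). A further domain lay upstream of the gene, with H3K27ac of 8.11-fold over 4246 bp (chr2:26532659-26536904) inside an H3K4me1 peak of 11.01-fold over 13061 bp. These 2 H3K27ac peaks of over 8-fold were the highest of any member.

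Both factors sat at the promoter side of the *Notch1* domain. Otx2 gave 9.40-fold over 3093 bp (chr2:26499759-26502851), a fold reached by 3.18% of the list, with its summit 1713 bp into the gene. Neurod1 gave 6.13-fold (chr2:26501940-26502713), with its summit 211 bp from that of Otx2, and this is the first stretch printed above. The Neurod1 peak within 1 kb of the TSS was weaker, 2.12-fold with a −log10 q of 1.46. A second site in the intronic domain had Neurod1 of 3.13-fold (chr2:26486698-26488036) over Otx2 peaks of 3.04 and 3.19-fold, and the 2 remaining Neurod1 peaks were 2.91-fold (chr2:26500248-26500929) and 2.79-fold (chr2:26488746-26489227). The last of these was the only Neurod1 peak of any member without an Otx2 peak on it. Otx2 was also at the promoter (3.46-fold), in the upstream domain (3.25 and 2.55-fold), and downstream of the gene at 3.27-fold and, beside the promoter of *Sec16a*, at 4.13-fold. The 5 Neurod1 peaks at *Notch1* are a number reached by 0.474% of protein-coding genes.

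*Notch2* (chr3:98013527-98150361, plus strand) is a receptor known in the eye for its part in ciliary body development. It showed a promoter of 13.3-fold H3K4me3 over 1617 bp without H3K27ac or Neurod1. Otx2 was at that promoter at 6.46-fold, the second highest TSS value of the members, and H3K4me1 beside it at 9.04-fold. H3K4me1 was strong in the long first part of the gene, at 16.9-fold over 7785 bp (chr3:98031685-98039469) and 16.4-fold over 7281 bp (chr3:98023343-98030623), folds reached by 2.96% and 3.27% of the list. H3K27ac formed 9 peaks in the window of 176835 bp, all inside the gene, a number reached by 7.90% of protein-coding genes. The highest were 4.05-fold (chr3:98025036-98026461), on the second of these H3K4me1 peaks and a fold reached by 24.4% of the list, and 3.94-fold over 2211 bp (chr3:98062754-98064964). The other 7 were below the list median. The other 3 Otx2 peaks lay in introns that carried H3K4me1 without H3K27ac at the peak: 7.36-fold at chr3:98045590-98046486, 5.06-fold at chr3:98077842-98078525 and 2.48-fold at chr3:98061431-98061627. The first of them, 32355 bp after the TSS, holds TAATCC on the minus strand on both sides of its summit in the stretch printed above. No Neurod1 peak was called in the window.

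*Notch3* (chr17:32120820-32166852, minus strand), a receptor known from vascular mural cells, had H3K4me3 of 11.1-fold over 1424 bp (chr17:32165493-32166916) with Otx2 of 2.91-fold and H3K4me1 of 4.41-fold. None of the 4 pericyte markers (*Pdgfrb*, *Cspg4*, *Rgs5* and *Kcnj8*) had an H3K4me3 peak at a TSS, but 3 had H3K4me1 there (9.78-fold at *Pdgfrb*, 8.56-fold at *Kcnj8* and 3.69-fold at *Cspg4*). The part of mural cells in the *Notch3* values was not tested. The *Notch3* H3K27ac peaks of 3.82-fold (chr17:32138637-32139058) and 3.67-fold (chr17:32133723-32134200) were beside internal start sites in introns, the second with an Otx2 peak of 4.12-fold. Another intronic element had a Neurod1 peak of 3.38-fold and an Otx2 peak of 3.48-fold with summits 5 bp apart, and H3K27ac of 3.10-fold. Its printed stretch has CAGATG 12 bp before the Neurod1 summit. The upstream H3K27ac peak was 3.61-fold, and the highest H3K4me1 peak of the window was 7.39-fold, 16346 bp upstream.

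**Figure D4:**
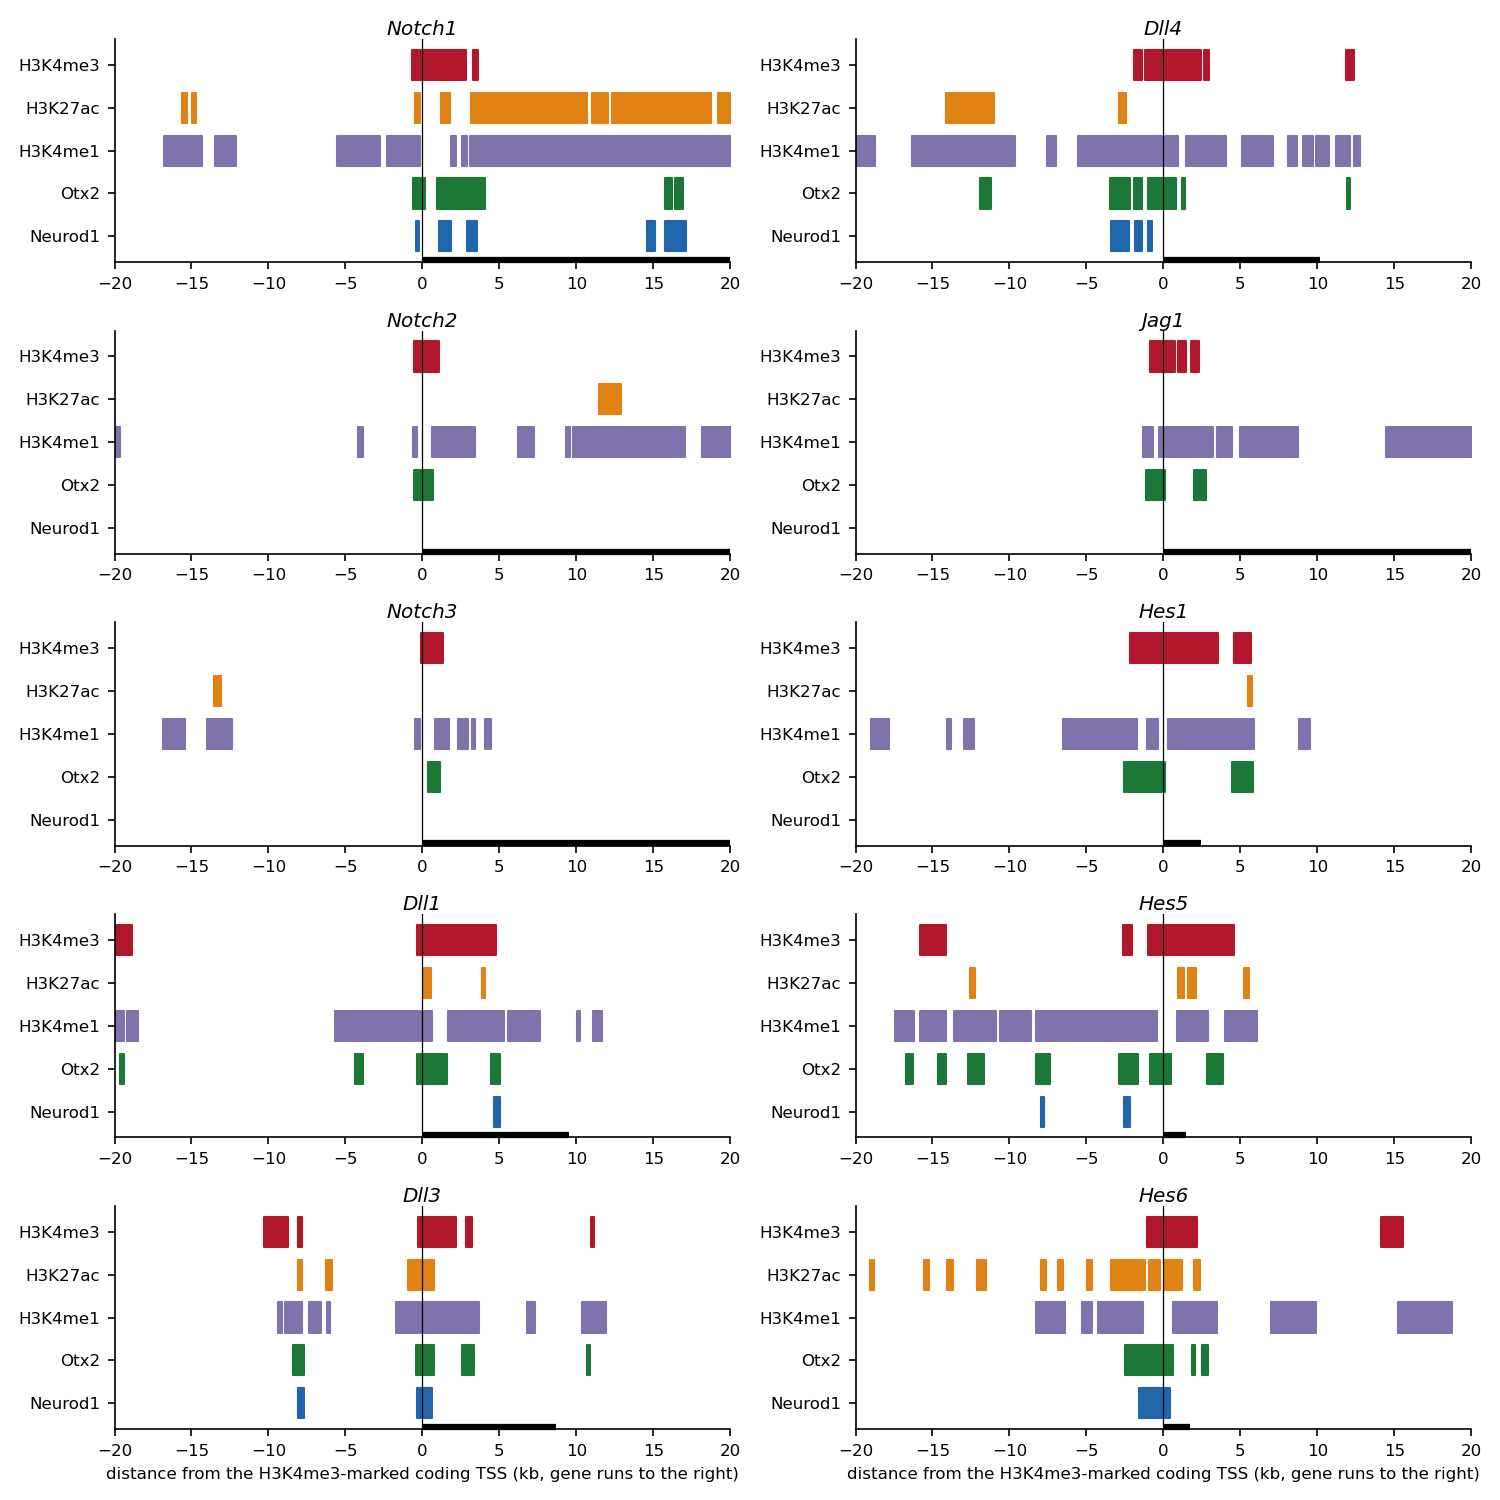
Peaks of the 5 targets (rows of bars) by distance in kb from the coding TSS that carries H3K4me3 (0), with each gene running to the right and its body drawn as a black line, for the 10 members within 20 kb on each side. The annotated body of Notch1 left of 0, out to its outer start site, is not drawn. Notch1 shows an almost unbroken H3K27ac and H3K4me1 domain inside the gene, Hes5 a row of Otx2 peaks upstream, and Notch2, Notch3, Jag1 and Hes1 have no Neurod1 bar in this span, the single Neurod1 peak of Notch3 lying deeper in the gene.

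Of the ligands, *Dll1* (chr17:15367354-15376872, minus strand), the Delta ligand of newly forming neurons, had a broad promoter: H3K4me3 of 35.2-fold over 5137 bp (chr17:15372092-15377228) flanked by H3K4me1 of 15.4-fold over 6337 bp upstream and 14.8-fold over 3617 bp within the gene. H3K27ac there was 2.52 and 2.38-fold, both below the list median and with −log10 q of 2.22 and 2.24. Neurod1 of 4.06-fold (chr17:15371804-15372222) lay at the inner edge of the H3K4me3 peak, beside the start site of a non-coding transcript at 15371831, and not at the coding start sites. When only start sites of coding transcripts were counted, *Dll1* was the member that lost its Neurod1 call. An Otx2 peak of 2.31-fold overlapped it, with its summit 129 bp away. Otx2 was also 3.502-fold over 1918 bp at the coding start sites, 2.38-fold upstream (chr17:15380756-15381223) and 2.29-fold at the promoter of *Fam120b*. Beyond 1 kb of its start sites *Dll1* had no H3K27ac peak, and the highest H3K4me1 peak there, 7.08-fold, was also at *Fam120b*.

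*Dll3* (chr7:28293553-28302238, minus strand), a divergent ligand known to restrain Notch within the cell that makes it, had the highest Neurod1 TSS peak of the members, 6.98-fold over 1032 bp (chr7:28301591-28302622), a value reached by 7.05% of genes with Neurod1 at a TSS. Its summit was 54 bp from the nearest TSS, in a UTR. H3K4me3 was 21.2-fold over 2452 bp, H3K27ac 3.57-fold over 1716 bp with a −log10 q of 6.55, H3K4me1 5.07-fold and Otx2 3.98-fold at the same place. All 5 targets thus met at the *Dll3* start, and it was 1 of 2 members whose H3K27ac and Neurod1 TSS peaks both passed a −log10 q of 5. A smaller element 7819 bp upstream repeated the combination, with Neurod1 of 3.24-fold, Otx2 of 2.72-fold, H3K27ac of 3.02-fold and H3K4me3 of 3.89-fold. The other Otx2 peaks were 3.64-fold in an intron (chr7:28298867-28299674) and 3.59 and 2.99-fold downstream, beside the promoters of *Eid2b* and *Selenov*. The window lies among other genes, and H3K4me3 peaks of 30.9-fold at *Timm50* and 24.3-fold at *Eid2b* within it lie at those promoters, as does its highest H3K4me1 peak beyond the start, 6.20-fold at *Eid2b*.

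*Dll4* (chr2:119325784-119335962, plus strand), a ligand made both by retinal precursors and by sprouting vessels, had H3K4me3 of 31.1-fold over 3631 bp and no H3K27ac peak within 1 kb of a TSS. Neurod1 and Otx2 formed a row upstream of it. From the TSS outward, Neurod1 was 2.95-fold at 848 bp, 4.82-fold at 1506 bp and 2.92-fold at 2825 bp. Otx2 was 3.58-fold over 1860 bp at the TSS, 3.29-fold at 1574 bp, 5.21-fold over 1300 bp at 3260 bp and 2.96-fold at 11499 bp. The middle Neurod1 and Otx2 summits were 68 bp apart, and the printed stretch around them has CAGATG and CAGCTG. The nearest H3K27ac peak, 3.63-fold at 2549 bp, lay inside the 2.92-fold Neurod1 peak and the 5.21-fold Otx2 peak. Further out, H3K27ac was 4.14-fold over 3135 bp at 12065 bp, where it covered the 2.96-fold Otx2 peak. These H3K27ac peaks lay within H3K4me1 peaks of 11.7 and 10.3-fold. The last 2 Otx2 peaks were 3.42-fold in an intron and 2.53-fold downstream of the gene. Of the 6 endothelial markers, *Kdr* carried H3K4me3 at 55.2-fold, and *Pecam1*, *Cdh5*, *Tie1*, *Tek* and *Emcn* had no H3K4me3 peak at a TSS. H3K4me1 was at 4 of the 6, up to 14.6-fold at *Cdh5*, and the part of vessel cells in the *Dll4* values was not tested.

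*Jag1* (chr2:137081456-137116644, minus strand), the Jagged ligand, had the lowest H3K4me3 of the members, 8.44-fold over 1605 bp, with no H3K27ac or Neurod1 at the TSS. Otx2 was 3.89-fold at the promoter and 4.38-fold in the first part of the gene (chr2:137113898-137114650), and these were its only Otx2 peaks. H3K4me1 was high across the gene, at 14.6-fold over 5563 bp (chr2:137096625-137102187), 12.5-fold over 4266 bp (chr2:137090981-137095246) and 16.3-fold downstream of it (chr2:137062796-137065613), folds reached by 4.69%, 7.24% and 3.38% of the list. The H3K4me1 peak at the start was 8.90-fold. H3K27ac formed 3 peaks in the window, at most 3.39-fold, near the list median. Like *Notch2* and *Hes1*, *Jag1* had no Neurod1 peak in its window. Its highest H3K27ac peak was, like that of every other member, below the 8.56-fold of *Notch1*.

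The target *Hes1* (chr16:30064384-30067796, plus strand), which represses proneural genes and cycles in dividing progenitors, had a wide H3K4me3 peak of 27.1-fold (chr16:30063193-30068911) that covered the whole gene. H3K4me1 flanked it at 12.2-fold over 4818 bp upstream and 7.91-fold over 5553 bp towards the 3′ end. No H3K27ac or Neurod1 peak lay within 1 kb of a TSS. Otx2 was 4.43-fold over 2689 bp at the start, a width reached by 0.429% of the list. A second element 4413 bp beyond the nearest TSS, downstream of the gene, carried Otx2 of 5.27-fold, H3K4me3 of 4.58-fold and the only H3K27ac peak of the window, 2.60-fold over 217 bp. The highest H3K4me1 peak beyond 1 kb of a TSS was 5.500-fold, 17757 bp upstream.

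*Hes5* (chr4:154960923-154962371, plus strand), a direct Notch target and marker of active signalling, had the highest H3K4me3 of the members, 40.2-fold (chr4:154959904-154965528). H3K27ac on it was 2.56-fold with a −log10 q of 2.41. No member had more Otx2 peaks: *Hes5* and *Notch1* each had 8, a number reached by 2.43% of protein-coding genes. Upstream of *Hes5* they stood at 321 bp (2.89-fold), 2455 bp (4.48-fold), 7889 bp (6.53-fold), 12002 bp (3.83-fold), 14247 bp (2.09-fold) and 16580 bp (2.31-fold). Those at 2455 and 7889 bp overlapped an H3K4me1 peak of 14.9-fold over 7874 bp (chr4:154952652-154960525) that reached the promoter, and each carried a weak Neurod1 peak, 2.60 and 2.73-fold. The summits of the factors there were 56 and 27 bp apart. Downstream, Otx2 was 4.81-fold beside *Pank4* and 2.72-fold at chr4:154981861-154982070, the only Otx2 peak of the members that overlapped no histone peak. Beyond 1 kb of the TSS the highest H3K27ac peak was 3.14-fold, downstream of the gene, and the highest H3K4me1 peak was 8.92-fold, 10159 bp upstream.

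Among the RefSeq promoters (GRCm38.p6, 250 bases before the start, without the bases after it), 9 of the 10 members had an entry, with 11 promoters in all. *Hes1* had none in the table. The *Hes5* promoter was the only one of the 11 with TGGGAA, and it held 2, one on each strand, beginning 226 and 82 bases before the start. Of all 32851 promoters, 21.6% held 1 or more and 2.77% held 2 or more. The *Hes5* promoter is printed because it alone held TGGGAA, from chr4:154960673-154960922 on the plus strand, with TGGGAA and its reverse in capitals.
Hes5 promoter: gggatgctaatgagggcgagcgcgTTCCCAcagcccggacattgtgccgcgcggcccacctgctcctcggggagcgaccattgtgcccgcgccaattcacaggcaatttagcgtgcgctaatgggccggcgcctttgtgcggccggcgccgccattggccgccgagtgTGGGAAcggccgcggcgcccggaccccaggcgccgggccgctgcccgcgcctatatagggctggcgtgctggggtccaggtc

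CACNAG was in 5 of the 11 promoters (36.7% of all), CAGCTG in 5 (13.0% of all), and CAGATG and TAATCC in 0, against 14.4% and 6.25% of all. A count of 0 in 11 says only that these letters were not in these windows.

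*Hes6* (chr1:91411483-91414038, minus strand), a Hes-type protein that opposes Hes1 and favours differentiation, carried H3K27ac and Neurod1 together at its start, as *Dll3* did. Neurod1 was 6.46-fold over 2039 bp (chr1:91412789-91414827), a width reached by 0.337% of its list, and Otx2 4.33-fold over 3154 bp (chr1:91412589-91415742), a width reached by 0.189%. Their summits were 51 bp apart, between the coding TSS and the non-coding start site upstream. The H3K4me3 peak of 28.2-fold covered 3254 bp. The H3K27ac peaks on it within 1 kb of a TSS were 2.53 and 2.79-fold, both below the list median. A stronger H3K27ac peak lay next to the H3K4me3 peak (chr1:91414421-91416621), with its summit 1498 bp upstream of the nearest TSS. It was 7.71-fold over 2201 bp, the highest H3K27ac TSS value of the members and one reached by 3.88% of genes with such a peak. The H3K4me1 peak beside it was 7.84-fold. *Hes6* had 11 H3K27ac peaks in its window, 7 of them upstream and beyond 1 kb of a TSS, up to 4.44-fold at 14622 bp. The highest H3K4me1 peak beyond the start, 9.97-fold, was near the promoter of *Ilkap*. The other Otx2 peaks of *Hes6* were 2.52 and 2.40-fold, both downstream.

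Across the members' windows, 14 of the 15 Neurod1 peaks overlapped an Otx2 peak, against 82.1% of the whole Neurod1 list. The distance between overlapping summits had a median of 129 bp and ran from 5 to 1258 bp. By the histone peaks they overlapped, 10 of the 15 Neurod1 peaks were of promoter type (H3K4me3, 66.7% against 25.6% of the list), 4 of active enhancer type (H3K27ac without H3K4me3, 26.7% against 40.1%), 1 of poised enhancer type (H3K4me1 alone, 6.67% against 28.7%) and 0 outside (5.54% of the list). Of the 45 Otx2 peaks, 26 were of promoter type (57.8% against 43.3%), 9 active (22.6% of the list), 9 poised (26.9% of the list) and 1 outside (2.22% against 7.20%). The windows are placed around genes, which also brings them nearer to promoters than the list at large.

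Over the window of gene body plus 20 kb, all 10 members had peaks of H3K4me3, H3K27ac, H3K4me1 and Otx2, against 66.6%, 53.6%, 81.2% and 69.9% of all protein-coding genes. Neurod1 was in 7 of 10 windows, against 19.4%, and was missing at *Notch2*, *Jag1* and *Hes1*. Some of these peaks belong to neighbours. Of the peaks beyond 1 kb of a member's TSS, 7 of 16 for H3K4me3 were within 1 kb of another gene's TSS, 13 of 89 for H3K4me1, 5 of 32 for Otx2, 1 of 46 for H3K27ac and 0 of 10 for Neurod1.

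The rest of the pathway was read from a list of 47 genes. H3K4me3 was at a TSS of 44 of them (93.6%), H3K4me1 of 42 (89.4%), Otx2 of 40 (85.1%), H3K27ac of 22 (46.8%) and Neurod1 of 9 (19.1%), so the Neurod1 share stood between that of the members and that of all genes. The 3 without H3K4me3 were the ligand *Dlk1* and the repressors *Hes2* and *Hes3*. Neurod1 was highest at *Numbl*, a relative of the Notch antagonist Numb, at 11.4-fold. Other peaks were at the target *Heyl* (7.36-fold), at the ligand-activating ubiquitin ligase *Mib1* (6.80-fold), at the fucosyltransferase *Pofut1* (5.00-fold), at the gamma-secretase subunit *Ncstn* (4.33-fold), at the Fringe glycosyltransferases *Mfng* (3.71-fold) and *Lfng* (2.71-fold), and at *Hes3* (2.44-fold). *Mib1* also had the highest H3K4me3, 78.8-fold. In the nuclear complex all 9 genes had H3K4me3 and Otx2, 7 had H3K27ac and 0 had Neurod1, with H3K4me3 of 55.7-fold at *Rbpj*, the DNA-binding partner of the cleaved receptor.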

How the data were processed

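Per the study's methods and the submitters' processing notes, the authors trimmed reads (cutadapt 3.5, Trim Galore 0.6.4), aligned them to GRCm38 with Bowtie2, filtered them by mapping quality (SAMtools 1.12), removed duplicates (UMI-tools) and joined technical replicates. Peaks were then called with MACS2 at a q-value of 0.05, on all libraries of a target together and with IgG as the control. The deposited values are a fold enrichment (a ratio to IgG) and a −log10 q-value per peak. Aligner and caller versions are not given in the sources used here.

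From there, peaks were assigned to genes of GENCODE M21 by 1 bp of overlap with 1 kb around any TSS or with the gene body plus 20 kb (Python 3.11.15, pandas 2.3.3). The interval code was tested on simulated data, where 7500 of 7500 windows gave the count of bedtools. Backgrounds were all 21951 protein-coding genes or the whole list. Motifs were searched on both strands in 300 bases around summits and in RefSeq promoters, a palindrome counting once.

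All 10 members are named, each with its highest TSS peaks, every Otx2 and Neurod1 peak and its highest distal H3K27ac and H3K4me1 peaks. Other pathway genes are named where they have Neurod1 at a TSS, no H3K4me3 or an extreme value (1 such gene is counted but not reported here); *Rbpj*, *Dll4*'s endothelial markers and the pericyte markers were added after their values were seen. Members and lists were chosen with earlier results of these data known. With 1 pooled list per target no test was made. Ground squirrel lists were not used. Other distances, thresholds, overlaps and start sites were tried.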

Additional observations from a re-analysis of the deposited data

How the results depend on the processing

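Of 78 alternatives to 23 results, 55 stayed within 1.5 times the count reported (or within the counting interval of a share) and 23 moved. With a −log10 q of at least 5, 2 members had H3K27ac and 3 had Neurod1 at a TSS, and the windows held 18 H3K27ac and 8 Neurod1 peaks. The background shares are not given at that threshold. Under that threshold in all lists, Otx2 peaks were 5 of active enhancer type and 2 outside, and Neurod1 peaks 6 of promoter, 2 of active enhancer and 0 of poised enhancer type. With an overlap of at least 250 bp, Otx2 had 2 peaks outside and Neurod1 had 2 of poised type and 1 outside. In gene bodies alone there were 15 H3K4me3, 32 H3K27ac, 56 H3K4me1, 22 Otx2 and 9 Neurod1 peaks, and a flank of 50 kb gave 176 for H3K4me1. Over all 55450 annotated genes the backgrounds were 27.2% for H3K4me3, 13.3% for H3K27ac, 38.0% for H3K4me1, 25.7% for Otx2 and 2.93% for Neurod1. Counting H3K27ac or Neurod1 only on the H3K4me3 peak, an alternative chosen after seeing the data, gave 5 members each. No paired analysis was possible because each list pools its replicates, and for the same reason no replicate could be left out. Peak calls depend on depth, which is unknown here, so a member without a peak is one where none was called.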

Other observations

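Of the other 47 pathway genes, *Hey2*, a Hes-related repressor, had the highest H3K4me1 (23.7-fold) and Otx2 (10.5-fold) TSS peaks of the list, with H3K27ac of 6.72-fold and no Neurod1 peak. *Kat2b*, an acetyltransferase that works with the cleaved receptor, had the highest H3K27ac (8.58-fold). The lowest H3K4me3 was at *Neurl1a*, a ubiquitin ligase for ligands (4.56-fold).

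Peak density was also compared by window length, with no test. The median number per 10 kb of window was 0.756 for Otx2 against 0.186 over all protein-coding genes, 1.67 against 0.616 for H3K4me1, 0.487 against 0.106 for H3K27ac and 0.432 against 0.135 for H3K4me3. Over genes with H3K4me3 at a TSS these medians were 0.295, 0.856, 0.218 and 0.220. For Neurod1 the median was 0.218 in the members and 0 in the other sets.

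Among the marker lists, Neurod1 was at a TSS of 3 of 5 photoreceptor precursor genes and of 0 of 6 progenitor genes, and at 0 of the 22 genes of the other cell types. Otx2 was at 5 of 5 and 5 of 6, and at 2 of those 22. Over all protein-coding genes the shares were 5.75% for Neurod1 and 51.0% for Otx2, so counts of 0 for Neurod1 in short lists are common. The *Neurod1* gene itself was among the 3, at 11.1-fold. In the gene body plus 20 kb, Neurod1 peaks were also called at *Sox2* among the progenitor genes, and at *Pecam1* and *Cspg4* among the other cell types.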
